A study of Mus musculus with 8 samples.

Results

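The major urinary protein (Mup) genes are described here in livers of young mice that carried 1 copy of a mutant Rragc gene and in livers of their +/+ controls. The 10 members, Mup1, Mup2, Mup3, Mup7, Mup10, Mup11, Mup14, Mup17, Mup20 and Mup21, were found by gene name among 14506 listed genes. They were chosen by the genotype comparison itself, after Mup17 and Mup20 had been seen lower in S74N/+ livers, so every genotype difference of a Mup gene below is a description and carries no test. All 10 members passed the filter for tested genes, a mean of at least 10 over the livers, as did 11174 genes in all.

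MUPs are small secreted lipocalins, barrel-shaped carriers that bind volatile pheromones, pass from liver into blood and are filtered into urine. Hepatocytes make most of them, and male mice make far more than females. Their transcription in liver rises at puberty and is known to depend on pulsatile growth hormone acting through JAK2 and STAT5b, with androgen, thyroid hormone and glucocorticoid as further inputs. Rragc encodes RagC, a GTPase that relays nutrient availability to the kinase complex mTORC1.

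Whole liver was profiled from 4 Rragc +/+ and 4 Rragc S74N/+ mice. The S74N change was introduced by CRISPR editing together with silent changes, and the heterozygous mice kept 1 unedited allele in all tissues. By the labels, +/+ livers 1 to 3 came from mice of 3 months and +/+ liver 4 from a mouse of 2.5 months. S74N/+ livers 1 and 2 came from mice of 3 months, S74N/+ liver 3 from a mouse of 2.5 months and S74N/+ liver 4 from a mouse of 2 months, which had no +/+ counterpart of its age. Sex is not in the labels. Replicate numbers only name a liver. Each library counts reads from the 3′ end of messenger RNA, so a normalized count (reads of a gene divided by the size factor of the liver) follows transcript copies and not length.

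The livers held between 4313076 and 6632108 reads in listed genes. The 4 Y-linked genes Ddx3y, Eif2s3y, Kdm5d and Uty had reads in every liver, with sums of 536 to 720 normalized counts in +/+ and 650 to 701 in S74N/+ livers. Rragc itself was at 84.1 ± 20.4 (SD, n = 4) in +/+ and 76.6 ± 7.32 (SD, n = 4) in S74N/+ livers, which does not show the allele, since gene counts do not separate the edited copy. Across the table, 1 of 11174 genes passed an adjusted p of 0.05 by limma (0.00895% of genes), and the same number passed by edgeR's quasi-likelihood test (0.00895%) and 10 by DESeq2 (0.0895%). The gene called by limma was Gpx3, a secreted glutathione peroxidase, with a log2 difference of -1.95 ± 0.25 (SE) and an adjusted p of 0.0411 by limma.

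The 10 members lie on chromosome 4 of GRCm38, all on the reverse strand, from Mup7 (start 60066469) to Mup21 (end 62150863), a stretch of 2084 kb that other Mup genes and pseudogenes share. Rragc lies on the same chromosome, 61.8 Mb further on (123917446 to 123936997). In the annotated coding sequences, Mup1, Mup2, Mup7, Mup10, Mup11, Mup14 and Mup17 formed a group of near-identical copies, with 98.5% to 99.8% of aligned bases identical between any pair. Mup3 and Mup21 shared 96.3% with each other and 86.0% to 86.9% with the near-identical group. Mup20 stood between, at 90.6% to 91.5% identity to that group. Words of 50 bases were compared in the last 300 bases of the longest coding transcript, where these libraries read if the annotated end holds. Of these words, 93.6% in Mup3, 91.2% in Mup20 and 82.1% in Mup21 occurred in no transcript of another gene. That share was 56.6% for Mup17 and 38.6% for Mup11, and 0% for Mup1, Mup2, Mup7, Mup10 and Mup14. Reads of the last 5 therefore had no such word to place them in that window. How shared reads were counted is not given, so values of these copies may hold reads of others or lack reads of their own. The sum over the 10 members is therefore given as well, though it may also hold reads of copies that are not members, or lack reads of members.

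RefSeq promoter windows (GRCm38.p6, from 250 bases before to 50 after the annotated start) were used for Mup2, Mup3, Mup7, Mup10, Mup11, Mup14, Mup17 and Mup21. Those of Mup17, Mup2, Mup3 and Mup21 are printed because Mup17 and Mup3 had the largest and the smallest genotype difference, and Mup2 and Mup21 are close relatives of each. Capitals mark TATATAA, searched on both strands as a form of the core promoter element known as the TATA box.
Mup17, chr4:61595783-61596082, reverse strand: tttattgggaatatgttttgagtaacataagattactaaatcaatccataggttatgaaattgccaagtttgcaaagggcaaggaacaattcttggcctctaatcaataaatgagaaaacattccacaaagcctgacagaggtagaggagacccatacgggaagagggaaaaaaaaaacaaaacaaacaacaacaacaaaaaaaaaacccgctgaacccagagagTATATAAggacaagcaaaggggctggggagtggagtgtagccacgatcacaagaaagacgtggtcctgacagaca
Mup2, chr4:60139807-60140106, reverse strand: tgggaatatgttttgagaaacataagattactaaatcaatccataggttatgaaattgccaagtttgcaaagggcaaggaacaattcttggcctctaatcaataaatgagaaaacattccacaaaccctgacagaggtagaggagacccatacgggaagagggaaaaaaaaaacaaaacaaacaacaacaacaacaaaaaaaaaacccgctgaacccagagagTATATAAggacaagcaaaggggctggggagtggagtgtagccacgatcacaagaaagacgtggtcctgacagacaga
Mup3, chr4:62087268-62087567, reverse strand: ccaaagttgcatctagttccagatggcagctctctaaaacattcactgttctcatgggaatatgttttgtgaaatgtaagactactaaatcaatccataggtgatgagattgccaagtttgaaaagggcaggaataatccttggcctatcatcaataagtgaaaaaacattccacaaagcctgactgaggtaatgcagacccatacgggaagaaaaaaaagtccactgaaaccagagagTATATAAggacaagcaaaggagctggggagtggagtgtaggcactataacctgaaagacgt
Mup21, chr4:62150792-62151091, reverse strand: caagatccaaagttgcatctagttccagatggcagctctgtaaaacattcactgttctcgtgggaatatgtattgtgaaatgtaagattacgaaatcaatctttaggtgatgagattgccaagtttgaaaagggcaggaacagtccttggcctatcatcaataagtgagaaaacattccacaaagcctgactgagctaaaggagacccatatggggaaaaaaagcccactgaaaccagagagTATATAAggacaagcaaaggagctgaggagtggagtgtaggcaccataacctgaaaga

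Over aligned bases the Mup17 and Mup2 windows were 99.3% identical, those of Mup3 and Mup21 93.9%, and those of Mup17 and Mup3 87.6%. TATATAA was found in 7 of 8 member windows, all but that of Mup7, against 3.24% of 32851 windows of the same length. Its first base lay at -25 in Mup17, -27 in Mup2, -11 in Mup3 and -8 in Mup21, and between -31 and 13 over the 7 genes, so the annotated starts are not at 1 common place (in Mup10 the matches on both strands overlap). The Mup7 window ends in bases that lie before TATATAA in the Mup17 and Mup2 windows. Sequence beyond the end of the Mup7 window was not searched. None of the 8 windows held TTCNNNGAA (STAT, in 8.30% of all windows), GTTAAT (an HNF1 site, 7.10%), TTGCNNAA (C/EBP, 10.8%) or TATAAA (a second TATA box form, 13.6%) on either strand. This says only that those letters are not within these 300 bases.

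The sum over the 10 members was lower on average in S74N/+ than in +/+ livers, with overlap between the groups. It was 114965, 127639, 171257 and 104623 normalized counts in +/+ livers 1 to 4. In S74N/+ livers 1 to 4 it was 118265, 59034, 83838 and 25475. S74N/+ liver 1 was inside the +/+ range, the other 3 S74N/+ livers were below every +/+ liver, and the liver of 2 months was the lowest at 19.7% of the +/+ mean. The means were 129621 ± 29310 (SD, n = 4) and 71653 ± 39212 (SD, n = 4), a log2 difference of -1.04 ± 0.50 (SE). Without the liver of 2 months it was -0.61. Among the 5 livers of 3 months it was -0.70, and between the 2 livers of 2.5 months, 1 of each genotype, it was -0.32. The members took 1.80% to 2.81% of all reads in +/+ livers and 1.03% to 2.06% in S74N/+ livers 1 to 3. In S74N/+ liver 4 they took 0.471% (95% Wilson interval 0.466% to 0.476%, which covers counting error only). In bulk tissue, fewer cells of a type and less RNA per cell cannot be told apart. The summed normalized count of 12 hepatocyte markers was 380840 to 503210 in +/+ livers, 413233 to 646548 in S74N/+ livers and highest in the liver of 2 months, where the Mup sum was lowest. Without Alb the marker sum was 321104 to 361093 in +/+ and 327742 to 393707 in S74N/+ livers, and again highest in that liver. Single markers went in different directions there. Alb, at 252840, was the highest of all livers, and Apoa2, at 34729, was the lowest. Whether hepatocyte content differed was not tested.

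**Figure D1:**
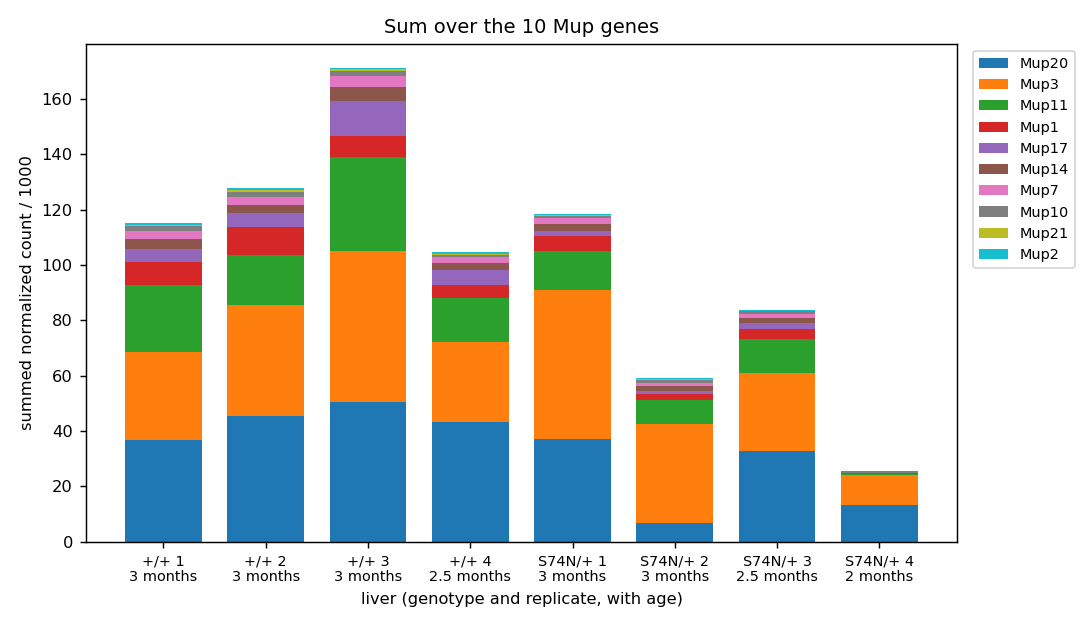
The bars give the summed normalized count (divided by 1000, axis from 0) of the 10 Mup genes in each liver, stacked by gene, with genotype, replicate and age under each bar. Mup20 and Mup3 make up most of every bar, and the S74N/+ liver of 2 months has the shortest bar, with little other than these genes.

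Mup20 and Mup3, the members whose 3′ ends are read most nearly on their own, made up 59.6% to 69.0% of the sum in +/+ livers. This share depends on how shared reads of the other copies were counted. Mup20 encodes darcin, the male pheromone protein of urine that attracts females. Its normalized counts were 36574, 45267, 50581 and 43340 in +/+ livers 1 to 4 and 36963, 6881, 32788 and 13224 in S74N/+ livers 1 to 4. S74N/+ liver 1 again fell inside the +/+ range and the other 3 below it, and here the lowest value belonged to S74N/+ liver 2, of 3 months, at 15.7% of the +/+ mean. Its log2 difference was -1.26 ± 0.44 (SE) with all livers and -1.11 without the liver of 2 months.

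Mup3 showed the smallest genotype difference of the members. It stood at 31952, 40309, 54483 and 28870 in +/+ livers and at 53952, 35518, 28263 and 10865 in S74N/+ livers, in the same order of replicates. S74N/+ livers 1 and 2 were inside the +/+ range, liver 3 was just under it and only the liver of 2 months was far below. The log2 difference was -0.45 ± 0.41 (SE). It was 0.0041 without the liver of 2 months and 0.086 among livers of 3 months, so its direction turned on that liver. Mup21, the nearest relative of Mup3 in sequence, had lower normalized counts. Its annotated transcript is 677 bases long, against 984 for Mup3, and whether the libraries read its annotated end was not tested. Mup21 was at 498, 785, 665 and 508 in +/+ livers against 405, 295, 281 and 23.7 in S74N/+ livers. All 4 S74N/+ values were below all 4 +/+ values, and the log2 difference was -1.83 ± 0.67 (SE), or -0.90 without the liver of 2 months.

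The near-identical copies were lower in S74N/+ livers by amounts that differed widely. Mup17, the member with the largest difference, was at 4747, 5124, 12651 and 5639 in +/+ livers and at 1943, 931, 2225 and 7.34 in S74N/+ livers. The groups did not overlap. In the liver of 2 months the value of 7.34 came from 9 reads (95% exact Poisson interval 3.36 to 13.9 normalized counts), about 0.104% of the +/+ mean, while livers 1 to 3 held 27.6%, 13.2% and 31.6% of it. The log2 difference of Mup17 was -3.91 ± 1.33 (SE) with all livers and -2.02 without the liver of 2 months, the largest of the 10 in each case.

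Mup11, the most abundant of the near-identical copies, had 24314, 17863, 33875 and 15685 normalized counts in +/+ livers and 14239, 8912, 12299 and 193 in S74N/+ livers. The groups did not overlap, and the liver of 2 months held 0.843% of the +/+ mean, far under the other S74N/+ livers. Its log2 difference was -2.39 ± 1.04 (SE), against -0.92 without that liver. Mup1 had 8059, 10147, 7687 and 4768 in +/+ livers and 5109, 2068, 3307 and 96.3 in S74N/+ livers. Here S74N/+ liver 1 was above the +/+ liver of 2.5 months, so the groups overlapped, with a log2 difference of -2.45 ± 0.91 (SE) and of -1.18 without the liver of 2 months.

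Mup14, Mup7, Mup10 and Mup2 were less abundant. Mup14 ranged from 2542 to 4919 in +/+ and from 321 to 2472 in S74N/+ livers, with no overlap. Mup2 also did not overlap, at 405 to 555 against 23.7 to 390, and its highest S74N/+ value, in the liver of 2.5 months, was 84.6% of the +/+ mean. Mup7 (1918 to 4193 against 158 to 2212) and Mup10 (797 to 1925 against 563 to 1105) did overlap, in both cases because the +/+ liver of 2.5 months was under the highest S74N/+ value. Mup10 was the member least reduced in the liver of 2 months, at 36.5% of the +/+ mean. The log2 differences were -1.41 for Mup14, -1.70 for Mup7, -0.77 for Mup10 and -1.88 for Mup2.

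**Figure D2:**
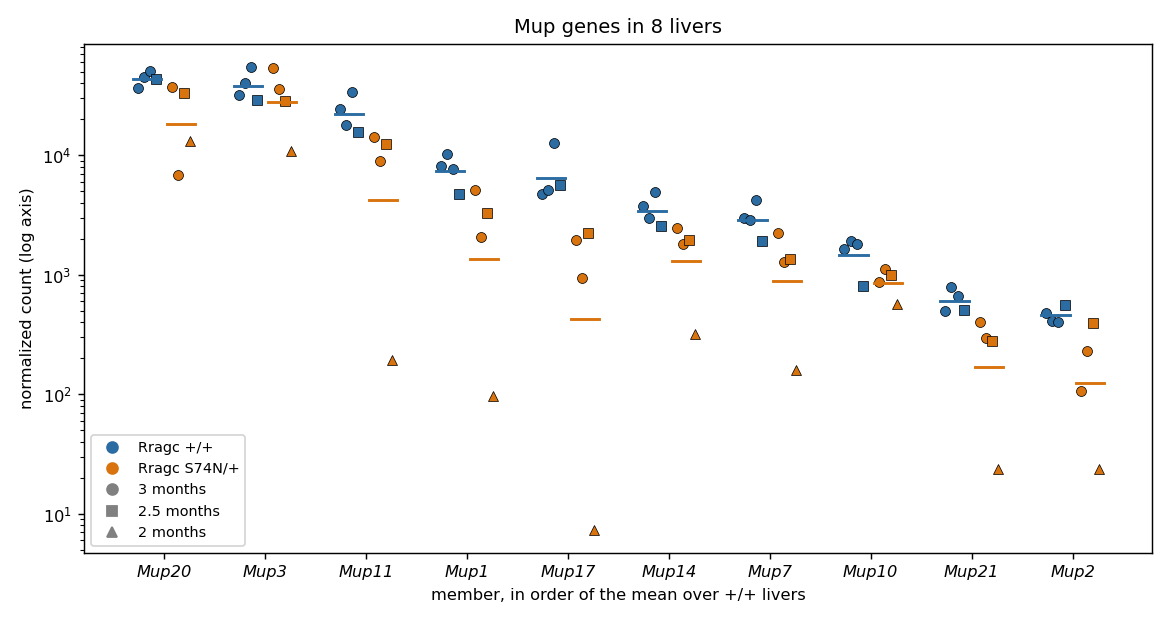
Normalized counts (log axis) of each Mup gene are shown per liver, with +/+ in blue, S74N/+ in orange, ages as marker shapes and the mean of the log2 values as a short line. The 4 +/+ livers of a gene span at most 2.67-fold, and the S74N/+ liver of 2 months (triangle) is the lowest point for 9 of 10 genes.

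All 10 members had a lower mean log2 value in S74N/+ livers, with a median log2 difference of -1.76, from -3.91 (Mup17) to -0.45 (Mup3). Over all tested genes the median was 0.0115 and 48.7% were lower. In Mup2, Mup11, Mup14, Mup17 and Mup21, 5 of 10 members, every S74N/+ liver was below every +/+ liver, which held for 1.64% of tested genes (the reverse held for 1.3% of tested genes and no member). The choice of members rested on this comparison, so nothing is read from these counts. Without the liver of 2 months the median was -0.91, 9 of 10 members were lower, and the same 5 members did not overlap, as was so for 2.21% of tested genes. Among livers of 3 months the median was -1.04, with 9 of 10 lower, and Mup3 was the exception in both.

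**Figure D3:**
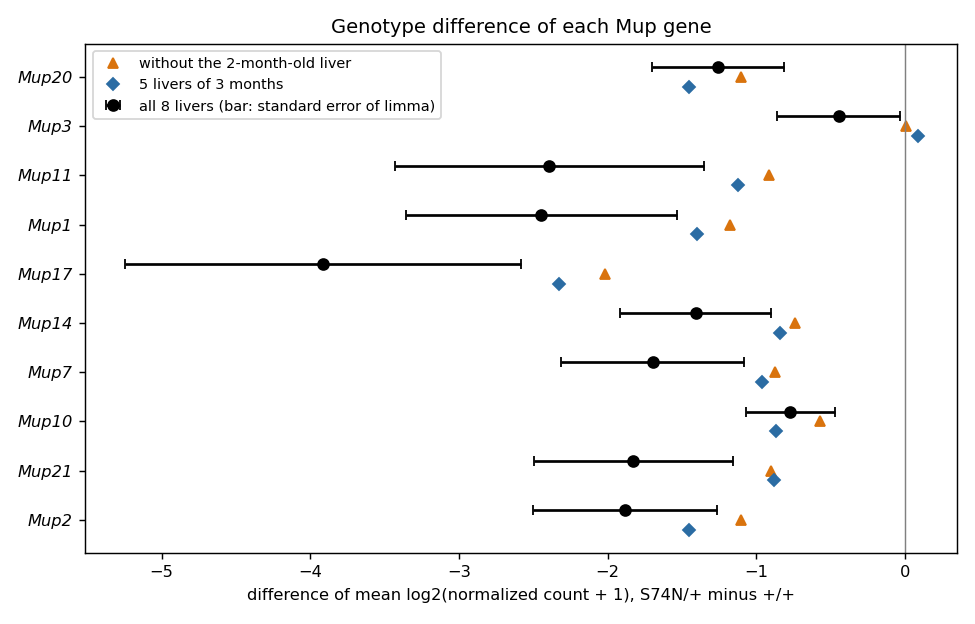
Differences of mean log2(normalized count + 1), S74N/+ minus +/+, are given for each Mup gene from all 8 livers (black, bar: SE by limma), without the liver of 2 months (orange) and from the 5 livers of 3 months (blue). Every black point is below 0, and leaving out the liver of 2 months moved all 10 genes toward 0, least for Mup20 and most for Mup17.

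The make-up of the family also differed between livers. Mup3 and Mup20 together made up 76.9%, 71.8% and 72.8% of the sum in S74N/+ livers 1 to 3 and 94.6% in liver 4, all above the 69.0% of the highest +/+ liver. The sum over the other 8 members was between 32413 and 66193 in +/+ livers, and was 27349, 16635, 22787 and 1387 in S74N/+ livers 1 to 4. The groups did not overlap in that sum, with a log2 difference of -2.05, or -1.05 without the liver of 2 months. S74N/+ liver 2 stood apart in another way, with Mup20 at 11.7% of its sum and Mup3 at 60.2%.

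In +/+ livers the members ranked Mup20, Mup3, Mup11, Mup1, Mup17, Mup14, Mup7, Mup10, Mup21 and Mup2 by mean normalized count, from 43941 ± 5787 to 461 ± 70.7 (SD, n = 4 each). Of the 9 neighbouring pairs, 6 differed by more than their pooled SD. Mup20 and Mup3, Mup1 and Mup17, and Mup14 and Mup7 did not. The pooled SD does not use that both genes of a pair were measured in the same livers. Within livers, Mup14 was above Mup7 in 4 of 4 +/+ livers, Mup20 above Mup3 in 3 and Mup1 above Mup17 in 2. Ranges were fully apart only between Mup11 and Mup1 and between Mup10 and Mup21. The rank holds only for the reads as the authors assigned them, above all for members with few or no words of their own.

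Values of the members varied together across livers, given here as a description with no test. The Pearson correlation of log2(normalized count + 1) between 45 pairs of members had a median of 0.87 over the 8 livers, from 0.44 (Mup10 and Mup20) to 0.996 (Mup7 and Mup14). Without the liver of 2 months the median was 0.66 and the range ran from -0.58 (Mup2 and Mup3) to 0.99 (Mup11 and Mup14). The points share size factors, and pairs of near-identical copies may share reads.

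Age was not balanced between genotypes. In a fit with genotype and age in months, all 10 members had a positive slope, with a median of 2.51 log2 units per month against 0.0294 over all tested genes, from 0.0503 (Mup20) to 5.25 (Mup17). That slope rested on 1 liver, since without the liver of 2 months the median was 0.68. With age in the fit the median genotype difference of the members was -1.17 and that of the sum -0.69. Age and the particular mouse of 2 months cannot be told apart. Inside +/+, the liver of 2.5 months was the lowest of the 4 for the sum, Mup1, Mup3, Mup7, Mup10, Mup11 and Mup14 and the highest for Mup2.

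The table listed 15 other Mup rows, 9 genes and 6 pseudogenes, which held few of the reads, as the 10 members took 88.6% to 98.3% of all Mup reads in each liver. All 15 had a lower mean log2 value in S74N/+ livers, as did 48.7% of tested genes. Their median difference was -1.92 (-1.27 without the liver of 2 months). In 6 of the 15, every S74N/+ liver was below every +/+ liver, which held for 1.64% of tested genes. Mup5 and Mup-ps19, among the 15, were under the filter for tested genes. Mup16 and Mup12 were the most abundant of the 15. Mup16 ranged from 2838 to 5663 in +/+ and from 101 to 2232 in S74N/+ livers, and Mup12 from 1194 to 4247 and from 53.0 to 1482. These rows belong to the same family, may share reads with members and are not independent of them.

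Mup15 split the +/+ livers. It stood at 1472 and 1042 normalized counts in +/+ livers 1 and 2, both of 3 months, at 7.07 and 1.87 in +/+ livers 3 and 4, and at 6.43, 0.889 and 4.46 in S74N/+ livers 1 to 3. S74N/+ liver 4 had no read, which allows up to 2.45 normalized counts (3 reads). No other tested gene had +/+ livers 1 and 2 both at 100 or more and at least 10-fold above each of the remaining 6 livers. The sum of the 10 members did not follow this split, since +/+ liver 3 had the highest sum.

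Genes of the pathway known to drive Mup transcription were examined next, in a list that also holds its targets, its inhibitors and IGF binding proteins. Of 20 tested genes of the growth hormone, JAK2 and STAT5 axis, 0 passed the adjusted threshold by limma, edgeR or DESeq2, and 3 had an unadjusted p under 0.05 by limma, all with higher values in S74N/+ livers (Igfbp1, Igfbp2 and Socs2). Over all tested genes, 578 of 11174 (5.17%) had such a p, 2.37% with higher and 2.8% with lower values in S74N/+ livers. The 20 genes of the axis had a median log2 difference of 0.23, and 14 of 20 were higher, while 48.7% of all tested genes were lower. As activators and inhibitors stand side by side in this list, no direction of the pathway is read from that count. Ghr, the growth hormone receptor, differed by 0.08 ± 0.22 (SE), and Igf1, the secreted growth factor that growth hormone induces, by 0.16 ± 0.19. Stat5b, the transcription factor downstream of the receptor, differed by -0.37 ± 0.23. None of these differences was larger than 2 SE.

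Some other genes of the list varied more. Socs2, a STAT5 target that damps growth hormone signaling, was at 341, 256, 76.4 and 252 normalized counts in +/+ livers and at 635, 408, 416 and 977 in S74N/+ livers, without overlap. Its log2 difference was 1.49 ± 0.42 (SE), with an adjusted p of 0.846 by limma. Igfbp1, a binding protein of IGF1 that fasting raises, did not overlap either, at 80.6 to 275 against 279 to 2252, with a difference of 2.04 ± 0.59 and the same adjusted p of 0.846 by limma. Cish, another STAT5 target, spread from 9.35 to 79.2 in +/+ and from 8.92 to 431 in S74N/+ livers (log2 difference 0.998 ± 0.973, SE). Bcl6, a repressor of female-biased genes in male liver, spread from 35.4 to 458 and from 30.2 to 98.1 (-0.98 ± 0.70), and Socs3, an inhibitor of cytokine signaling, differed by 1.66 ± 0.95. None of these genes passed the adjusted test.

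Of 33 hepatocyte transcription regulators, 0 passed by limma, edgeR or DESeq2, and 1 of 33, Esr1, had an unadjusted p under 0.05 by limma, against 5.17% of all tested genes. The median log2 difference was 0.07, with 19 higher and 14 lower (48.7% of all tested genes were lower). Hnf4a and Cebpa, which set hepatocyte gene expression, differed by 0.36 ± 0.29 and 0.19 ± 0.25 (SE), and Zhx2, a regulator of postnatal liver genes, by -0.17 ± 0.33. Esr1, the estrogen receptor, was at 28.0 to 67.3 in +/+ and 40.1 to 317 in S74N/+ livers, with the highest value in the liver of 2 months (difference 1.19 ± 0.50). Cux2, a regulator found in female liver, was at 0 to 9.32 in the other 7 livers and at 78.3 in the liver of 2 months. For Cebpd the difference was 0.73 ± 0.80.

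Liver genes that, like the Mup genes, are known to be higher in males were lower on average in S74N/+ livers for most genes, though 0 of 16 tested passed the adjusted test by limma, edgeR or DESeq2. Of the 16, 14 had a lower mean, as did 48.7% of all tested genes. An unadjusted p under 0.05 by limma was reached by 5 of the 16, all lower (Cyp7b1, Elovl3, Selenbp2, Ugt2b38 and Cyp2u1). In that direction it was reached by 2.8% of all tested genes. Of the 16, 13 had their lowest value in the liver of 2 months, for which the share over all genes was not computed. The median log2 difference was -0.88, and -0.29 without that liver, when 12 of 16 were lower. Selenbp2, a selenium binding protein, was at 4624, 7042, 5308 and 5981 in +/+ and 2995, 1511, 3319 and 225 in S74N/+ livers, without overlap. Elovl3, a fatty acid elongase, was at 4105 to 5978 against 102 to 3709, also without overlap. Cyp7b1, an oxysterol hydroxylase, was at 524 to 1030 against 62.0 to 589, with overlap. These differed by -2.06 ± 0.64, -1.96 ± 0.84 and -1.55 ± 0.53 (log2, SE), each with an adjusted p of 0.846 by limma. Ugt2b38, a glucuronosyltransferase, differed by -1.36 ± 0.59.

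Of 25 genes listed as higher in female liver, 10 were tested and 0 passed by limma, edgeR or DESeq2. Of these 10, 9 had a higher mean in S74N/+ livers, while 48.7% of all tested genes had a lower one. Of the 9, 5 had an unadjusted p under 0.05 by limma (2.37% of all tested genes did, in that direction). Nipal1, 1 of these 5, had a mean of 7.64 in +/+ and 71.0 in S74N/+ livers. It passed the filter, a mean of at least 10, only through the S74N/+ livers. Listed genes under the filter were left out, so nothing is read from these counts. Of the 10, 8 were highest in the liver of 2 months, for which the share over all genes was not computed. The median log2 difference was 0.98, and 0.80 without that liver. Cyp17a1, a steroid hydroxylase, was at 1.41 to 21.5 in +/+ livers, 11.9 to 35.6 in S74N/+ livers 1 to 3 and 799 in liver 4. Hamp2, a hepcidin gene, was at 122 to 388 in +/+ livers and 375, 664, 863 and 2644 in S74N/+ livers 1 to 4. The log2 differences of Cyp17a1, Nipal1, Hamp2 and Abcd2, the 4 largest of the list, were 2.42 ± 1.12, 2.60 ± 1.03, 1.65 ± 0.51 and 1.48 ± 0.64 (SE).

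**Figure D4:**
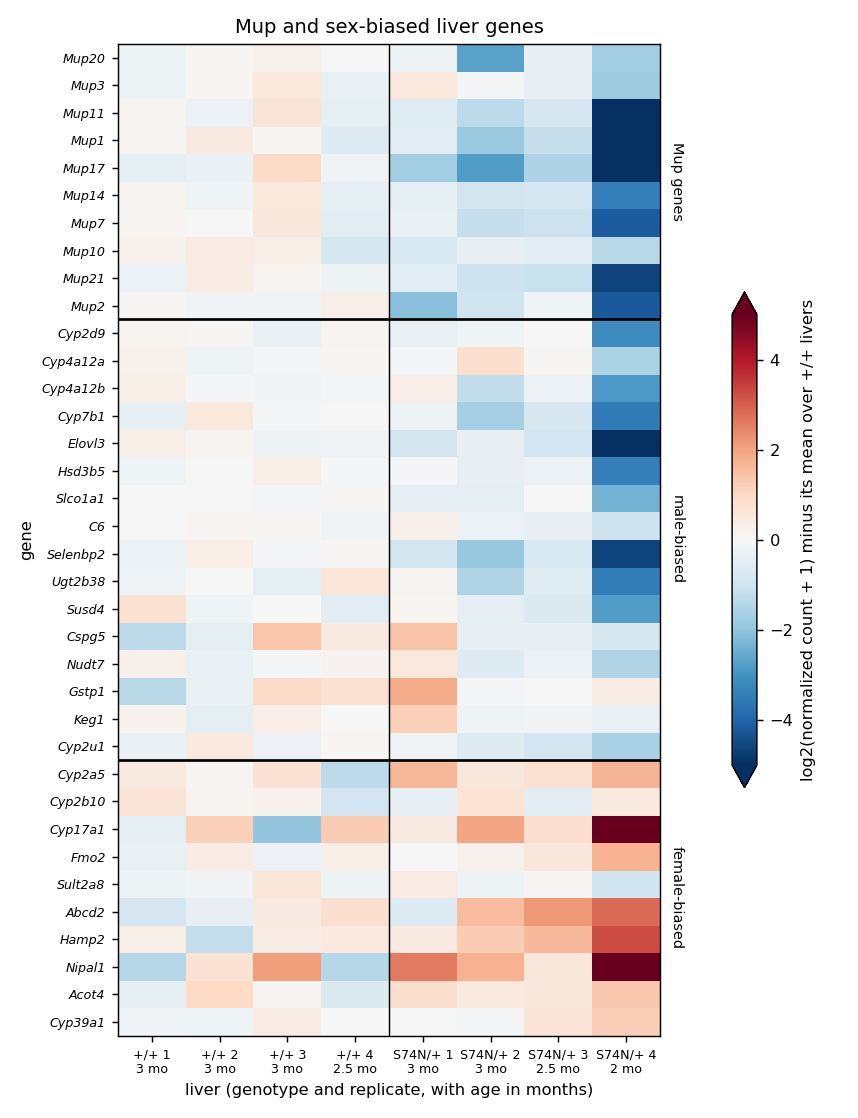
Each cell gives log2(normalized count + 1) of a gene in a liver minus its mean over the +/+ livers, for the 10 Mup genes, 16 male-biased and 10 female-biased genes, with colours limited at 5 in either direction and 6 of the values beyond that limit. The last column, the S74N/+ liver of 2 months, holds the lowest value of 9 of 10 Mup rows (Mup20 is lowest in S74N/+ liver 2) and 13 of 16 male-biased rows, and the highest of 8 of 10 female-biased rows (Sult2a8 is lowest there). The share over all genes was not computed. Outside the figure, this liver was lowest for 9 and highest for 6 of 33 transcription regulators. Of 25 genes of secreted hepatocyte proteins, it was lowest for 5 and highest for 10.

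Further lists were examined in the same way. Of 10 tested lipocalins outside the family, relatives of the MUPs in fold, 0 passed by limma, edgeR or DESeq2 and none had an unadjusted p under 0.05 by limma, with a median log2 difference of -0.01. The 4 largest differences were those of Obp2a (-1.99 ± 1.20, SE), Lcn2 (1.32 ± 0.82), Orm3 (-0.46 ± 0.66) and C8g (-0.38 ± 0.24). Of 25 genes of secreted hepatocyte proteins, 0 passed by limma or edgeR and DESeq2 called Serpina3k, a serine protease inhibitor, a call that DESeq2 without the filter on low values did not make. Serpina3k was at 54968 to 80147 in +/+ and 34993 to 40178 in S74N/+ livers, without overlap, with a log2 difference of -0.79 ± 0.23 (SE). Alb, Apob and Fga differed by 0.75 ± 0.41, -0.56 ± 0.30 and 0.57 ± 0.35. Of 17 genes of the fasting and feeding response, 0 passed by limma, edgeR or DESeq2, and Pck1, a gluconeogenic enzyme, and Igfbp1 had an unadjusted p under 0.05 by limma, higher in S74N/+ livers as in 2.37% of all tested genes. Pck1 was at 425 to 986 in +/+ livers, 823 to 1999 in S74N/+ livers 1 to 3 and 4095 in liver 4 (1.18 ± 0.45). Tat and G6pc differed by 1.26 ± 0.81 and 0.67 ± 0.35.

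Among 4867 genes outside the family with a mean of at least 100, those whose log2 values followed the log2 Mup sum most closely over the 8 livers were Gm31583 (Pearson r = 0.97), Cyp7b1 (0.95), Selenbp2 (0.95), Cyp4a12b (0.94) and Tacc1 (0.93). Gm31583 had 134 to 219 normalized counts in +/+ livers and 118, 85.3, 126 and 25.3 in S74N/+ livers. The lowest correlations were those of Gstt3 (-0.97), Nudt19 (-0.94) and Cyp17a1 (-0.94). Without the liver of 2 months the 5 highest were 0.88, 0.83, 0.78, 0.75 and 0.72 and the 3 lowest -0.87, -0.92 and -0.78, in the same order of genes. These are the extremes of many genes over few livers and carry no test.

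Markers of liver cell types were compared beside these values. The 12 hepatocyte markers, with their sums given beside the Mup sum, were all above 0 in every liver, and Alb gave 252840 in the liver of 2 months. Sums of markers of Kupffer cells (10 of 10 listed), endothelial cells (8 of 8), stellate cells (8 of 8), cholangiocytes (5 of 6, without Cftr), lymphocytes (8 of 10, without Cd3g and Cd8a) and neutrophils (3 of 8, without Ly6g, Mpo, Elane, Camp and Ltf) overlapped between the groups. Those of 6 of 10 kidney tubule markers did not, at 95.4 to 206 in +/+ and 25.3 to 64.3 in S74N/+ livers. Kap, an androgen-induced kidney gene, was at 67.9 to 164 against 6.69 to 46.2, and the other 5 were at 22.4 or less in every liver. Kap gave 66.7% to 79.5% of the sum in +/+ livers and 54.3%, 78.8%, 23.1% and 41.9% in S74N/+ livers 1 to 4. The kidney markers Umod, Cubn, Aqp2 and Slc22a6 were not among the listed genes. The part of these markers in the Mup values was not tested.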

How the data were processed

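Per the labels and the study's methods, reads were aligned by the authors (GRCm38; TopHat2 2.0.10, Bowtie 1.0.0, SAMtools 0.1.19), counted by strand with HTSeq 0.6.1 on GENCODE vM20 and scaled with DESeq. How reads matching several Mup copies were treated at counting is not given in the sources used here. What the authors deposited is that scaled signal, 1 normalized count for each gene in each liver. All values (100%) were whole multiples (tolerance 0.01) of 1 step per liver, which gave whole reads and size factors of 0.707 to 1.23.

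Here log2(normalized count + 1) was fitted with limma 3.58.1 (trend, genotype only, Benjamini-Hochberg at 0.05) in R 4.3.3, with edgeR 4.0.16 and DESeq2 1.42.0 on recovered reads as alternatives. This scale understates changes of low genes. Each liver was 1 mouse, per the study. Other settings were TMM, upper-quartile and Mup-free scaling, pseudocounts of 0.1 and 5, a filter at a mean of 50 or none, no trend, age as a covariate, 3-month livers alone and leaving out each liver.

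Coordinates and transcripts are from GENCODE M21 (14458 listed names found), a neighbouring release, and promoters from RefSeq. The members and lists were chosen with earlier results of these data known. Genes named are all members, other Mup rows, Rragc, Mup regulators, called list genes, the 4 largest differences of each list and the 5 most and 3 least like the Mup sum. Others were named after their values were seen. Of the transcription regulators, 1 gene that this rule names is not reported here.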

Additional observations from a re-analysis of the deposited data

Results flagged for a closer look

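In 4 of the 22 groups of 4 livers checked, 1 liver lay far from the other 3 of its genotype by Dixon's criterion, where chance flags about 1 in 20 groups, here 1.1. All 4 concern the S74N/+ liver of 2 months. On the log2(normalized count + 1) scale it held 7.60 for Mup11 (the other S74N/+ livers 13.12 to 13.80), 8.33 for Mup14 (10.83 to 11.27), 3.06 for Mup17 (9.86 to 11.12) and 4.62 for Mup21 (8.14 to 8.66). The members are not independent of each other and were chosen after Mup17 and Mup20 had been seen lower in S74N/+ livers. Nothing is therefore read from the number of flags. The liver of 2 months was also the only one of its age.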

How the results depend on the processing

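The liver of 2 months set the size of most Mup differences. Leaving out each liver in turn, the log2 difference of the sum ranged from -1.34 to -0.61, the median over members from -1.99 to -0.91 and the median age slope from 0.68 to 2.82, the lowest slope being that without the liver of 2 months. Mup3 ranged from -0.77 to 0.0041 and was 0.086 among livers of 3 months. The sum without Mup3 and Mup20, added after the data were seen, differed by -2.05. By edgeR and DESeq2 the median over members was -1.27. Rescaling by TMM, upper quartile or without Mup genes and other pseudocounts turned no member's direction, and no rescaling moved the median of all genes beyond 0.0190. The 1 gene called by limma became 0 without the trend, with age as a covariate and among livers of 3 months, 10 by DESeq2 and 6 by DESeq2 without the filter, an alternative chosen after seeing the data. On leaving out each liver in turn it ranged from 0 to 2. No paired analysis was possible because replicate numbers follow the order of samples and pair no mice. Depth limits Mup17, Mup2 and Mup21 in the liver of 2 months, with 9, 29 and 29 reads.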
